A study of Mus musculus with 12 samples.

Results

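The 9 genes examined here encode proteins that bind inflammatory mRNAs, and they are Zfp36, Zfp36l1, Zfp36l2, Zc3h12a, Zc3h12c, Rc3h1, Rc3h2, Elavl1 and Khsrp. They were taken by exact gene symbol from a table of 23847 rows (23361 symbols), and each of the 9 had 1 row. Poly-A RNA-seq had been performed on bone marrow-derived macrophages (BMDMs) of WT C57BL/6 mice aged 8 to 12 weeks, which were differentiated for 6 days with L929 supernatant, a source of M-CSF that all groups shared. The 4 groups of 3 samples were untreated control cells, cells given IL-4 (20 ng/ml, 24 hr), cells given LPS (100 ng/ml in the labels, 3 hr), and cells that received the same IL-4 treatment before the LPS (IL-4+LPS). The study describes the samples as 3 animals from more than 1 experiment, but the labels do not tie a sample to an animal, so the p-values measure the spread between these samples. Values are FPKM (fragments scaled to transcript length and to the mapped fragments of the library), which allows levels to be set side by side between genes of different length.

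An mRNA encoding a cytokine is short-lived when proteins that recognise its 3′ UTR recruit the decay machinery. ZFP36 (tristetraprolin, TTP) and its relatives ZFP36L1 and ZFP36L2 bind AU-rich elements (AREs) and bring in the CCR4-NOT deadenylase, while Regnase-1 (Zc3h12a) and Regnase-3 (Zc3h12c) are endonucleases and Roquin-1 (Rc3h1) and Roquin-2 (Rc3h2) bind stem-loops. KHSRP also promotes decay of ARE-containing mRNA, whereas HuR (Elavl1) binds the same kind of element and is known mainly for protecting mRNA, so the name destabilizer does not cover Elavl1.

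Several of these genes carry in their own 3′ UTR the nonamer TTATTTATT, the core of an ARE that the ZFP36 proteins recognise. The nonamer was present in the longest annotated 3′ UTR of 6 of the 9 genes, against 7.66% of 21020 mouse genes with an annotated 3′ UTR. The share rises with UTR length, so the comparison for each gene is the share among genes whose 3′ UTR is within 20% of its own. That share was 4.02% for Zfp36 (774 bases), 10% for Zfp36l1 (1835 bases) and 10% for Zfp36l2 (1822 bases), which held 1 match each. Elavl1 held 8 matches in 4218 bases, where 18.0% of genes of like length held any. Rc3h1 (7181 bases) and Rc3h2 (5331 bases) held 1 match each, with shares of 27.5% and 22.0% at their lengths, and Zc3h12a (856 bases), Zc3h12c (4062 bases) and Khsrp (1642 bases) held none. The windows of 30 bases below start at a match and are shown for the ZFP36 family and Elavl1, with the cytokine Tnf as the best known target of ZFP36. They read in the direction of the mRNA, with T for U. Positions are in GRCm38 (mm10), the build of the deposited files, with GENCODE vM21 gene models, and capitals mark the nonamer and its overlapping repeats.
Zfp36, chr7:28376940-28376969, strand -: TTATTTATTgtattaagattttatagtatt
Zfp36l1, chr12:80108156-80108185, strand -: TTATTTATTttagaaattctcccctttgtg
Zfp36l2, chr17:84184903-84184932, strand -: TTATTTATTatcttgtgaaaagtatacatt
Elavl1, chr8:4285777-4285806, strand -: TTATTTATTTATTTATTTATTtttatttat
Tnf, chr17:35199678-35199707, strand -: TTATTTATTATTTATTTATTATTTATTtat
Zfp36, Zfp36l1 and Zfp36l2 thus each hold a single nonamer, while the windows of Elavl1 and Tnf each hold 4 overlapping copies. A match describes letters in a window and does not show that a protein is bound there.

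Promoters of 300 bases (250 before and 50 after the start site) came from RefSeq on GRCm38.p6 for 8 of the 9 genes, all but Zfp36l2. Both strands were searched for the AP-1 site TGANTCA, a palindromic STAT6 site, the CRE TGACGTCA, the TATA box TATAAA, the kappaB consensus and the CArG box to which serum response factor binds, and each was counted on its own. The promoters shown are those of the 3 genes that changed with LPS and held a match, with matches in capitals.
Zfp36 promoter, chr7:28379179-28379478, strand -: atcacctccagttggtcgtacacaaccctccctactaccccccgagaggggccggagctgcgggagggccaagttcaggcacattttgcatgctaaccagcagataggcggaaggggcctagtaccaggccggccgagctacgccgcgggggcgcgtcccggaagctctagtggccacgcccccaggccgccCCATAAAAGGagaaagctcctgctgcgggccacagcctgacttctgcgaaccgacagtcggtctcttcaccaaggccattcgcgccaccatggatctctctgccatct
Zfp36l1 promoter, chr12:80112964-80113263, strand -: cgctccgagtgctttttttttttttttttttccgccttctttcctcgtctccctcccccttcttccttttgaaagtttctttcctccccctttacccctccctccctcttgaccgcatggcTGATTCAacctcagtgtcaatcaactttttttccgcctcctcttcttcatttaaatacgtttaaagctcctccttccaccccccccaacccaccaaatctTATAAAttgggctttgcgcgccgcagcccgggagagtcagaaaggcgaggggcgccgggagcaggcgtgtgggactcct
Zc3h12c promoter, chr9:52168357-52168656, strand -: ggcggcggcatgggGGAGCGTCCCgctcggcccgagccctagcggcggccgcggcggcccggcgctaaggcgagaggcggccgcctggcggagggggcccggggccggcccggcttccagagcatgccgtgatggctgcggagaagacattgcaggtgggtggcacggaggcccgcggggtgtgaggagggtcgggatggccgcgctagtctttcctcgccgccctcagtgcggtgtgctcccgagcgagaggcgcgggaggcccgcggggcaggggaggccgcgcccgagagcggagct
Zfp36 held a CArG box at position -58 from its start site, a motif found in 1.63% of 32851 promoters. Zfp36l1 held an AP-1 site at -129 (7.81% of promoters) and a TATA box at -29 (13.6%). Zc3h12c held a kappaB consensus on the opposite strand at -236 (8.46%), in the first of its 2 listed promoters. The promoter of Rc3h1 held an AP-1 site at -133. No STAT6 site (6.95% of promoters) and no CRE (1.79%) was present in these windows, which says only that these letters do not occur there.

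The 12 libraries held FPKM totals of 457583 to 495025, and their read counts are not given in the files. From the most frequent ratio of low FPKM values, which 12.8% to 25.3% of the rows used shared, the libraries had 0.991 to 3.30 times the depth of control replicate 1. Those numbered 1 had the lowest depth in every group, at 0.991 to 1.03 against 1.27 to 3.30 for the others. What this did to their values was not tested. The replicates numbered 1 stood apart, since within a group they correlated at a mean r of 0.959 with the other replicates, which correlated with each other at 0.977, and their LPS responses below were smaller for several genes. All 7 macrophage markers found in the files (of 9 looked for) were expressed, with Emr1 (F4/80) at 444 to 1188 and Csf1r at 411 to 932, while T cell, B cell, fibroblast and erythroid markers stayed below 1 FPKM. The summed macrophage markers moved with IL-4, from 19233 to 20599 in control down to 7571 to 7785 after IL-4 and from 15468 to 16697 after LPS down to 6567 to 6954 in IL-4+LPS, mostly through Lyz2. Granulocyte and mast cell markers summed to 307 to 818 in control, 211 to 389 after IL-4, 487 to 975 after LPS and 413 to 813 after IL-4+LPS, nearly all of it S100a8 and S100a9, while the mast cell gene Cpa3 was at or below 0.349 throughout. Of 5 dendritic cell markers 3 stayed below 1 FPKM in all samples, and their sum also moved with treatment, from 0.87 to 1.33 in control, 0.48 to 1.28 after IL-4, 1.66 to 2.49 after LPS and 2.43 to 3.72 after IL-4+LPS, where Zbtb46 was at 1.94 to 2.83. The part of these markers in the results below was not tested, and in bulk RNA fewer cells of a type and less RNA per cell cannot be told apart.

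LPS divided the 9 genes. In LPS-exposed BMDMs Zfp36, Zc3h12a, Zc3h12c and Elavl1 rose, Zfp36l1 and Zfp36l2 fell, and Rc3h1, Rc3h2 and Khsrp did not pass the test (limma on log2(FPKM + 1), Benjamini-Hochberg adjusted p under 0.05 over 11191 expressed rows). The 4 genes that rose compare with 16.9% of all expressed rows called higher, and the 2 that fell with 57.7% called lower. The median of all rows shifted by -0.44 (log2) with LPS, or by -0.14 after median scaling and -0.12 after quantile normalization, and each change can be read relative to that shift. All 9 genes were above 2 FPKM in every library, so none depended on the filter of 1 FPKM in at least 1 sample.

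**Figure D1:**
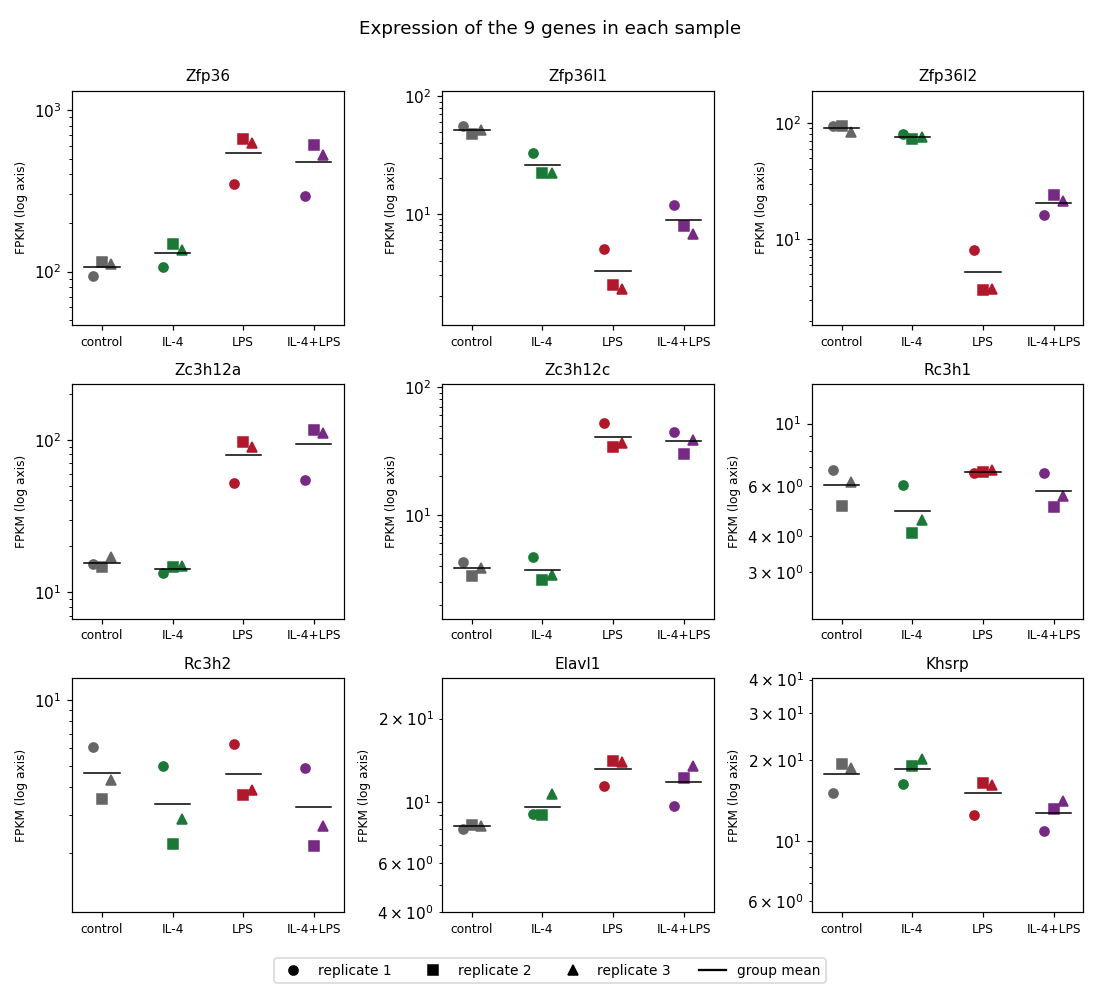
FPKM of each of the 9 genes in the 12 samples, on a log axis that differs between panels; symbols are the replicate numbers and lines are group means (n = 3). Zfp36, Zc3h12a and Zc3h12c are high in both LPS-exposed groups, Zfp36l1 and Zfp36l2 are low there and lowest with LPS alone, and in Rc3h1, Rc3h2 and Khsrp control and LPS samples overlap, with Rc3h2 between 2.16 and 6.28 FPKM and highest in replicate 1 of each group.

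Zfp36, which encodes TTP (chr7:28376784-28379228, minus strand, mm10), was the most highly expressed of the 9 genes. Its FPKM was 93.6, 114 and 112 in control cells and 349, 658 and 622 after LPS. Each LPS sample was above every control sample, as in 17.9% of expressed rows (58.7% had every LPS sample below), with replicate 1 the lowest of both groups. The increase was 2.29 ± 0.29 (SE) on the log2 scale (4.89-fold, limma adjusted p = 3.9e-05), and it was 2.49 with replicates 2 and 3 alone. Zfp36 moved from percentile 94.2 to percentile 99.0 of the expressed rows. After IL-4 alone it was 107, 148 and 136, which overlapped control, and after IL-4+LPS it was 291, 608 and 525.

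Zfp36l1 and Zfp36l2, the paralogs of TTP, went the other way. Zfp36l1 (chr12:80107760-80113013, minus strand) had an FPKM of 55.8, 47.9 and 51.4 in control cells and of 5.07, 2.50 and 2.28 after LPS. Its log2 change was -3.68 ± 0.26 (0.0782-fold, limma adjusted p = 4.65e-07), which placed it among the lowest 0.3% of all rows. Zfp36l2 (chr17:84183928-84187947, minus strand) had an FPKM of 94.3, 93.0 and 83.2 in control cells and of 8.08, 3.68 and 3.77 after LPS. Its log2 change was -3.95 ± 0.23 (0.0645-fold, limma adjusted p = 1.36e-07), within the lowest 0.2% of all rows. In both genes every LPS sample lay far below every control sample, and replicate 1 kept the highest LPS value. The libraries were made without a strand mark, so reads from an antisense transcript cannot be told apart from those of the gene. In GENCODE the lincRNA Gm26669 overlaps 55.9% of the exonic bases of Zfp36l1 on the opposite strand, and the antisense gene AC132455.1 overlaps 2.97% of those of Zfp36l2.

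Because these 3 proteins recognise the same element, their FPKM values were also added and each gene expressed as a share of the sum. The sum was 248 ± 6.03 (SD, n = 3) in control cells, 233 ± 12.1 after IL-4, 552 ± 165 after LPS and 504 ± 166 after IL-4+LPS. Zfp36 made up 42.9% ± 3.86 of it in control cells, Zfp36l2 36.3% ± 2.46 and Zfp36l1 20.8% ± 2.07. All 3 genes thus contributed to the family in untreated BMDMs. After LPS alone Zfp36 made up 98.2% ± 1.55, Zfp36l2 1.13% ± 0.96 and Zfp36l1 0.71% ± 0.59. LPS replicate 1 held the largest of these minor shares, 2.23% for Zfp36l2 and 1.40% for Zfp36l1, and without it their means were 0.57% and 0.37%. The share of Zfp36 was 38.4% to 45.4% in the control samples and 96.4% to 99.1% in the LPS samples, with no overlap (exact permutation test, two-sided, p = 0.10, the smallest that 3 against 3 samples allow).

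**Figure D2:**
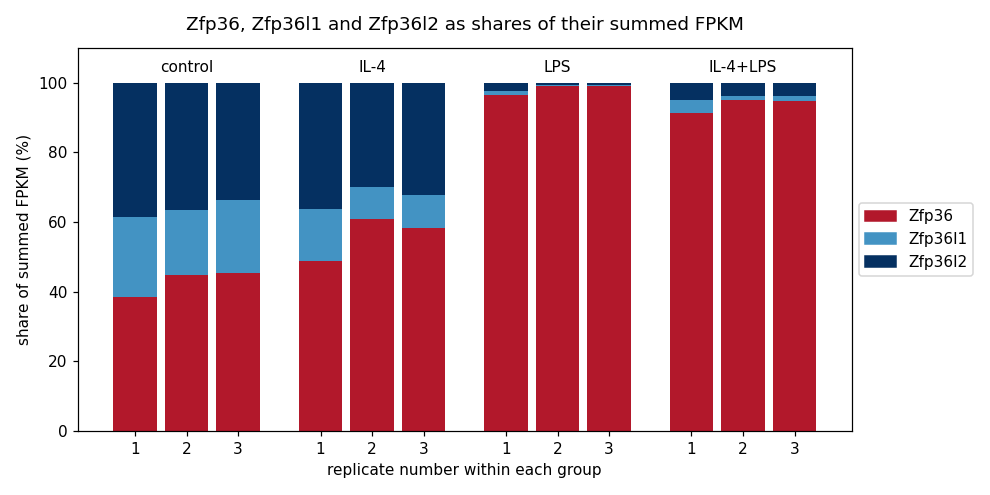
Share of Zfp36, Zfp36l1 and Zfp36l2 in their summed FPKM, as stacked bars in percent for each of the 12 samples, ordered by group and replicate number. Zfp36 is 38.4% to 45.4% of the sum in control samples and over 91% in each sample that received LPS, and the remainder is larger in IL-4+LPS than in LPS samples.

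The 2 Regnases among the 9 genes rose together with LPS, from different starting levels. Zc3h12a (chr4:125118414-125127881, minus strand), whose product cleaves stem-loops of mRNAs such as Il6, had an FPKM of 15.3, 14.6 and 17.0 in control cells and of 52.4, 96.9 and 89.8 after LPS. The increase was 2.23 ± 0.28 on the log2 scale (4.69-fold, limma adjusted p = 3.56e-05). Zc3h12c (chr9:52111985-52168111, minus strand), which encodes the related Regnase-3, was at 4.32, 3.34 and 3.89 FPKM in control cells and reached 52.5, 34.1 and 36.5 after LPS. Its increase of 3.09 ± 0.19 (8.54-fold, limma adjusted p = 2.09e-07) had the largest fold of the 4 genes that rose. Both genes had no overlap between control and LPS samples, but replicate 1 was the lowest LPS sample for Zc3h12a and the highest for Zc3h12c. Zc3h12a made up 80.3% ± 1.94 of the summed FPKM of the pair in control cells and 65.0% ± 13.1 after LPS (exact permutation p = 0.10). Its share was 49.97% in LPS replicate 1, against 73.96% and 71.11% in replicates 2 and 3.

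The Roquins stayed at low levels. Rc3h1 (chr1:160906411-160974976, plus strand) had an FPKM of 6.88, 5.14 and 6.24 in control cells and of 6.68, 6.73 and 6.86 after LPS. The groups overlapped, and the log2 difference was 0.14 with a 95% interval of -0.16 to 0.44 (limma adjusted p = 0.373). Relative to the fall of most rows Rc3h1 stood higher, and it passed the test after median scaling (0.46, limma adjusted p = 0.0123) and quantile normalization (0.61, limma adjusted p = 0.00175). Rc3h2 (chr2:37370071-37422903, minus strand) was at 6.08, 3.55 and 4.32 FPKM in control cells and at 6.28, 3.67 and 3.87 after LPS. Replicate 1 was the highest sample of Rc3h2 in all 4 groups, and the difference of -0.01 had an interval of -0.67 to 0.64 (limma adjusted p = 0.968). The interval leaves room for changes of either sign, and both scalings gave a positive value that did not pass.

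Elavl1 and Khsrp encode widely expressed ARE-binding proteins, and both differed less than the ZFP36 family, Zc3h12a and Zc3h12c. Elavl1 (chr8:4284782-4325100, minus strand) had an FPKM of 7.99, 8.27 and 8.20 in control cells and of 11.42, 14.02 and 13.95 after LPS. The groups did not overlap, and the increase was 0.62 ± 0.12 on the log2 scale (1.54-fold, limma adjusted p = 0.000747), or 0.96 after median scaling and 1.0 after quantile normalization. Khsrp (chr17:57021049-57031507, minus strand) had an FPKM of 15.1, 19.3 and 18.8 in control cells and of 12.5, 16.4 and 16.2 after LPS. Its difference was -0.22 with an interval of -0.53 to 0.09 (limma adjusted p = 0.167), and the direction depended on scaling, with 0.12 after median scaling. With replicates 2 and 3 alone Khsrp passed as lower (-0.21 ± 0.05, limma adjusted p = 0.0097). It also passed with all 12 samples and an offset for each replicate number, a replicate block (-0.22 ± 0.05, limma adjusted p = 0.00247). This call thus depended on how the replicate numbers were treated, which the labels do not tie to animals.

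With IL-4 alone 8 of the 9 genes did not pass the test. Of the 9 genes 1 fell, against 21% of expressed rows called lower, and 0 rose, against 16% called higher, where the unadjusted limma p and the per-gene Tukey test also called 0. Zfp36l1 was at 33.0, 22.4 and 22.0 FPKM after IL-4, below all control samples. The change was -0.996 ± 0.255 on the log2 scale (0.501-fold, limma adjusted p = 0.0116). Zfp36l2 was at 79.5, 73.1 and 75.6 FPKM, also below all control samples, but its difference of -0.24 ± 0.23 did not pass (limma adjusted p = 0.448). Groups that do not overlap in this direction occurred in 29.5% of expressed rows. Elavl1 was at 9.01, 8.95 and 10.7 FPKM, above all control samples (22.1% of rows did this), with a difference of 0.20 ± 0.12 that did not pass (limma adjusted p = 0.218). With replicates 2 and 3 alone, 4 genes fell (Zfp36l1, Zfp36l2, Rc3h1 and Rc3h2) and 1 rose (Zfp36), and without IL-4 replicate 1 Rc3h1 joined Zfp36l1. With all 12 samples and the replicate block, Rc3h1 (-0.27 ± 0.09, limma adjusted p = 0.0351) and Rc3h2 (-0.40 ± 0.08, limma adjusted p = 0.00264) also passed as lower. These counts thus depended on how the replicate numbers were treated, and the shares of all rows called in these settings are not given here.

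**Figure D3:**
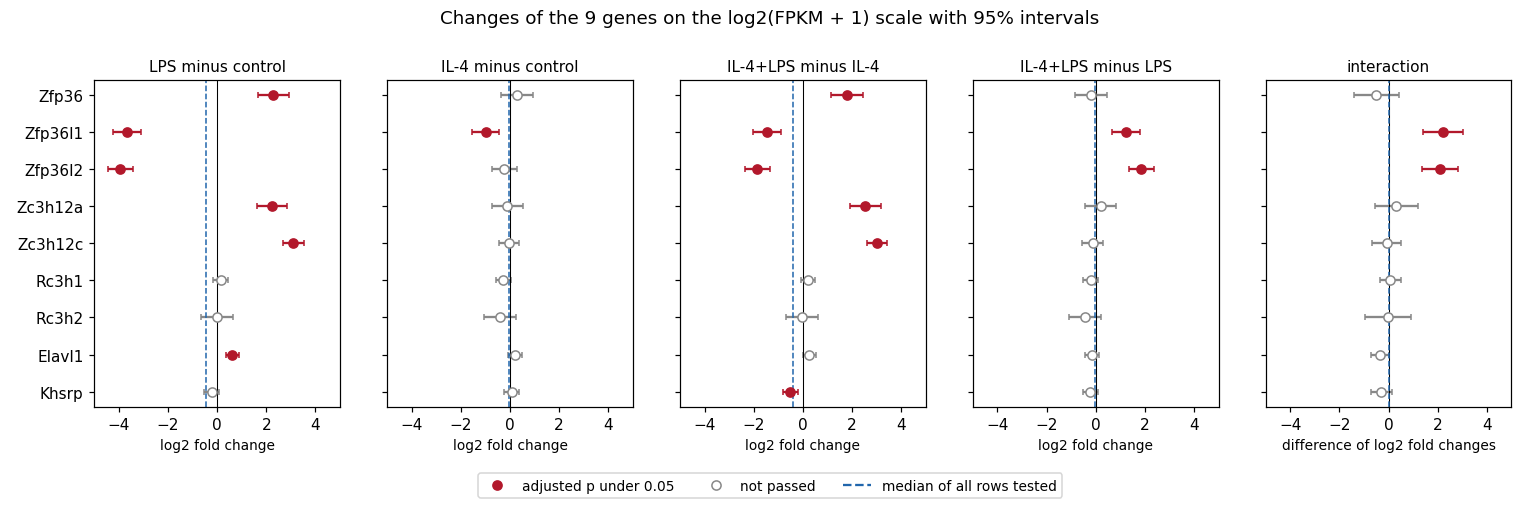
Log2 fold changes of the 9 genes in 4 comparisons and the difference between the LPS responses with and without IL-4 (interaction), on the log2(FPKM + 1) scale, with 95% intervals from limma; filled red points passed an adjusted p under 0.05 and the dashed line is the median of all expressed rows. Zfp36l1 and Zfp36l2 lie at -3.68 and -3.95 for LPS minus control and at 1.22 and 1.85 for IL-4+LPS minus LPS.

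After IL-4 pretreatment, LPS raised Zfp36, Zc3h12a and Zc3h12c and lowered Zfp36l1, Zfp36l2 and Khsrp compared with IL-4 alone, which is 3 genes higher against 15% of expressed rows and 3 lower against 57.9%. The IL-4+LPS values were 54.4, 115 and 110 FPKM for Zc3h12a, against 13.5, 14.7 and 14.8 after IL-4. For Zc3h12c they were 44.204, 30.002 and 38.44 FPKM, against 4.70, 3.12 and 3.41 after IL-4. The increases were 1.80 ± 0.29 for Zfp36, 2.54 ± 0.28 for Zc3h12a and 3.02 ± 0.19 for Zc3h12c (limma adjusted p = 0.000256, 1.6e-05 and 2.91e-07), and in each no IL-4+LPS sample overlapped an IL-4 sample, as in 15.7% of expressed rows for this direction and 58.9% for the other.

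Zfp36l1 fell by 1.46 ± 0.26 and Zfp36l2 by 1.86 ± 0.23 on the log2 scale (limma adjusted p = 0.00042 and 3.49e-05), also without overlap. Khsrp was at 16.4, 19.1 and 20.3 FPKM after IL-4 and at 10.9, 13.1 and 14.1 after IL-4+LPS. Its change of -0.52 ± 0.14 (limma adjusted p = 0.00653) was close to the median shift of all rows, -0.41, and it did not pass after median scaling (-0.18, limma adjusted p = 0.311) or quantile normalization (-0.28, limma adjusted p = 0.102). Under both scalings Rc3h1 and Elavl1 passed as higher instead, with 0.51 and 0.60 after median scaling.

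The comparison of IL-4+LPS with LPS alone asks how IL-4 pretreatment alters the LPS-exposed state, and the TTP paralogs passed in it. Of the 9 genes 2 rose, against 15% of expressed rows, and 0 fell, against 15.8% (the unadjusted limma p and the per-gene Tukey test also called 0). Zfp36l1 was at 11.8, 7.84 and 6.79 FPKM in IL-4+LPS samples, each above the 3 LPS samples, whose highest value was 5.07 (20.4% of expressed rows were separated in this way). The difference was 1.22 ± 0.26 on the log2 scale (2.33-fold, limma adjusted p = 0.00458). Zfp36l2 was at 16.0, 24.1 and 21.4 FPKM, each above the highest LPS value of 8.08. The difference was 1.85 ± 0.23 (3.62-fold, limma adjusted p = 0.00016), and it was 2.33 with replicates 2 and 3 alone. Both genes nevertheless stayed below every control and IL-4 sample.

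Zfp36, Zc3h12a and Zc3h12c, which LPS raised, did not pass in this comparison. The difference was -0.21 for Zfp36 (95% interval -0.86 to 0.44), 0.20 for Zc3h12a (-0.43 to 0.82) and -0.12 for Zc3h12c (-0.54 to 0.31). These intervals admit differences of up to about 0.9 on the log2 scale and do not show equal levels. With replicates 2 and 3 alone Zc3h12a passed as higher (0.27 ± 0.08, limma adjusted p = 0.0289), and Rc3h1 (-0.30), Rc3h2 (-0.49) and Khsrp (-0.25) passed as lower (limma adjusted p = 0.0418, 0.0205 and 0.0102). The share of all rows called in that setting is not given here. Elavl1 was at 9.70, 12.2 and 13.4 FPKM in IL-4+LPS samples and overlapped the LPS samples. Rc3h1 (6.70, 5.10 and 5.56) and Rc3h2 (4.88, 2.16 and 2.66) overlapped them as well.

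**Figure D4:**
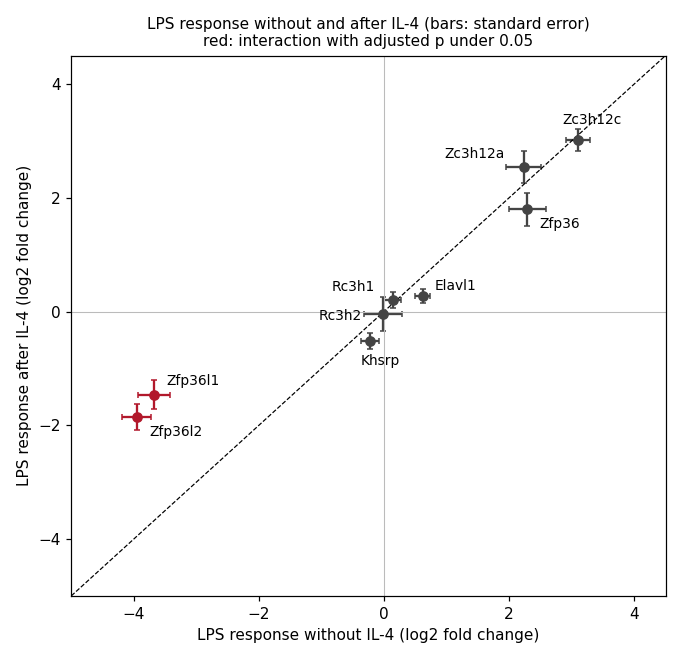
Log2 fold change with LPS after IL-4 pretreatment (IL-4+LPS minus IL-4, vertical) against that without it (LPS minus control, horizontal) for the 9 genes, with standard errors from limma and a dashed line of equal response; red marks an interaction with an adjusted p under 0.05. Zfp36l1 and Zfp36l2 lie above the line, at -3.68 and -1.46 and at -3.95 and -1.86, and the other 7 genes did not pass the interaction test.

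The response to LPS itself differed between naive and IL-4-pretreated cells for the same 2 genes. The interaction, taken as the log2 change with LPS in pretreated cells less that in naive cells, was 2.22 ± 0.36 for Zfp36l1 (limma adjusted p = 0.00376) and 2.10 ± 0.32 for Zfp36l2 (limma adjusted p = 0.00281). Both passed as positive, against 4.58% of expressed rows, and 0 of the 9 genes passed as negative, against 4.63% (also 0 at an unadjusted limma p under 0.05). With replicates 2 and 3 alone Zfp36 (-0.51 ± 0.11, limma adjusted p = 0.0199) and Khsrp (-0.29 ± 0.08, limma adjusted p = 0.0353) passed as negative. Khsrp also did with the replicate block (-0.29 ± 0.07, limma adjusted p = 0.0211). The shares of all rows called in these settings are not given here. For Zfp36l1 the starting level entered this value, since IL-4 alone had lowered it from a mean of 51.7 ± 3.96 (SD, n = 3) to 25.8 ± 6.22 FPKM before LPS brought it to 8.80 ± 2.62. For Zfp36l2 the mean after IL-4 alone was 76.1 ± 3.19 FPKM, against 90.2 ± 6.05 in control cells, and the level after LPS was 20.5 ± 4.10 against 5.18 ± 2.52. The 4 comparisons share samples and are not independent of each other.

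As shares of the family, Zfp36l2 made up 4.22% ± 0.70 of the summed FPKM after IL-4+LPS against 1.13% ± 0.96 after LPS, without overlap (exact permutation p = 0.10). Zfp36l1 made up 2.05% ± 1.42 against 0.71% ± 0.59, with overlapping samples (exact permutation p = 0.30), and the mean of 2.05% was 1.23% without IL-4+LPS replicate 1. Zfp36 still accounted for 93.7% ± 2.12.

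Across the 4 conditions the order of the means differed between the genes. Zfp36l1 was highest in control cells, followed by IL-4, IL-4+LPS and LPS, and each neighbouring pair of that order passed the test. Zfp36l2 had the same order, and of its neighbouring pairs control and IL-4, whose samples did not overlap, did not pass. Zfp36 and Zc3h12c were highest after LPS and Zc3h12a after IL-4+LPS, and in each the only step that passed was the one between the LPS-exposed and unexposed groups. For Rc3h1, Rc3h2, Elavl1 and Khsrp no neighbouring pair of the order passed. In IL-4+LPS against control cells, Zfp36, Zc3h12a, Zc3h12c and Elavl1 were higher (17.9% of expressed rows were) and Zfp36l1, Zfp36l2 and Khsrp lower (56.4%), with -0.45 ± 0.14 for Khsrp against a median of -0.43 over all rows.

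Over the 12 samples Zfp36l1 and Zfp36l2 had a Pearson r of 0.957 with each other and of -0.949 and -0.895 with Zfp36 on the log2 scale. These coefficients are descriptions, since the 4 conditions and the shared libraries set them. The rows most like Zfp36 were Bcor (r = 0.994), Sfpi1, the gene of the macrophage factor PU.1 (0.993), and Ncoa5 (0.99). Rows like Zc3h12a included Gfi1 (0.995) and Mycl1 (0.995), and Zc3h12c was most like Cd69 (0.998), an activation antigen, Ppp4r2 (0.996) and Lztfl1 (0.994). Zfp36l1 was most like Wdr11 (0.993), Hmha1 (0.989) and Txnip (0.988), and Zfp36l2 was most like Rpsa (0.993), Ccdc53 (0.985) and Mxd4 (0.981). For the other 4 genes the closest rows were Efha2, Taok1 and Lnpep for Rc3h1, Erbb2ip, Eea1 and Stk3 for Rc3h2, Nol10, Sfpq and Rcl1 for Elavl1, and Tmem185b, Ints5 and Clic1 for Khsrp, with r from 0.91 to 0.983.

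The mRNAs on which these proteins are known to act mostly rose with LPS. Of 18 expressed genes from a list of 22 such targets, 14 rose and 2 fell, where 16.9% of all expressed rows were called higher and 57.7% lower. The median change of the 18 was 3.31, against -0.44 for all rows. Csf2, Il6, Il12b and Il23a reached the filter of 1 FPKM only in LPS-exposed samples, so a fall with LPS could hardly be called for them. The count that rose was thus partly set by the filter. Tnf, the prototype target of TTP, rose from 15.8 ± 3.68 (SD, n = 3) to 1362 ± 51.6 FPKM (6.37 ± 0.21 on the log2 scale, limma adjusted p = 3.45e-09). Il6 rose from 0.14 ± 0.19 to 66.3 ± 15.4 FPKM, Il12b from 0.04 ± 0.04 to 16.4 ± 5.93, and Nfkbiz, a stem-loop target of Regnase-1 and Roquin, from 7.25 ± 1.29 to 236 ± 17.8. Ptgs2 and Cxcl1 had the largest increases, 7.70 ± 0.38 and 7.63 ± 0.35. The 2 that fell were the early-response genes Fos (-3.58 ± 0.43) and Myc (-1.48 ± 0.17). Zfp36, Zc3h12a and Zc3h12c were therefore high in the same samples as most of these targets, and steady-state FPKM does not separate synthesis from decay.

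IL-4 pretreatment did not lower any of these targets past the threshold in LPS-exposed cells. Of the 18, 6 were higher in IL-4+LPS than in LPS samples and 0 lower (limma, adjusted p under 0.05). Csf2 was among the 6 and reached the filter of 1 FPKM only in IL-4+LPS samples (1.54 ± 0.90 against 0.32 ± 0.20 after LPS). Among all expressed rows 15% were called higher and 15.8% lower. At an unadjusted limma p under 0.05, 3 of the targets were lower. After quantile normalization 1 target was lower, against 1609 of all 11191 rows. With replicates 2 and 3 alone 10 targets were higher and 3 lower, a setting whose share over all rows is not given here. Il6 was at 322 ± 145 FPKM against 66.3 ± 15.4 (2.17 ± 0.32 on the log2 scale, limma adjusted p = 0.000525), and Ccl2 at 708 ± 376 against 51.2 ± 12.4 (3.60 ± 0.40, limma adjusted p = 6.94e-05). IL-4 alone had already raised Ccl2 from 4.73 ± 0.77 to 39.0 ± 1.07 FPKM (2.81 ± 0.40, limma adjusted p = 0.000357). The interaction of Ccl2 did not pass (0.78 ± 0.56, limma adjusted p = 0.452), and that of Il6 did (2.23 ± 0.45, limma adjusted p = 0.0119). Tnf was at 2035 ± 556 against 1362 ± 51.6 FPKM and did not pass (0.54 ± 0.21, limma adjusted p = 0.0744). Il12b (-0.06 ± 0.29), Nfkbiz (-0.41 ± 0.17) and Ptgs2 (0.65 ± 0.38) did not pass either.

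Of 18 expressed genes known to control the 9 proteins (20 listed), 9 rose, 2 fell and 7 did not pass with LPS, where 16.9% of all expressed rows were called higher and 57.7% lower. The number that rose was 15 after median scaling, against 2966 of all 11191 rows, but 7 after quantile normalization, against 2903. Mapkapk2, the kinase MK2 that phosphorylates TTP, rose from 102 ± 19.9 to 832 ± 178 FPKM (3.00 ± 0.24, limma adjusted p = 1.45e-06). Malt1, the protease that cleaves Regnase-1 and Roquins, rose from 10 ± 1.46 to 144 ± 15.9 FPKM (3.72 ± 0.13, limma adjusted p = 5.05e-09). The 14-3-3 gene Ywhah (-0.93 ± 0.06) and the kinase gene Irak1 (-0.68 ± 0.10) were the 2 that fell. Dusp1, the phosphatase that switches off p38 signalling, was at 30.6 ± 2.64 FPKM in control and 61.5 ± 28.8 in LPS samples and did not pass (limma adjusted p = 0.0925). In IL-4+LPS samples Dusp1 was at 18.2 ± 9.43 FPKM, which was lower than after LPS alone (-1.72 ± 0.43, limma adjusted p = 0.0116). In that comparison 6 regulators in all were lower (15.8% of expressed rows were) and 0 higher (15%). At an unadjusted limma p under 0.05, 1 was higher. With replicates 2 and 3 alone 9 were lower and 3 higher, a setting whose share over all rows is not given here.

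**Figure D5:**
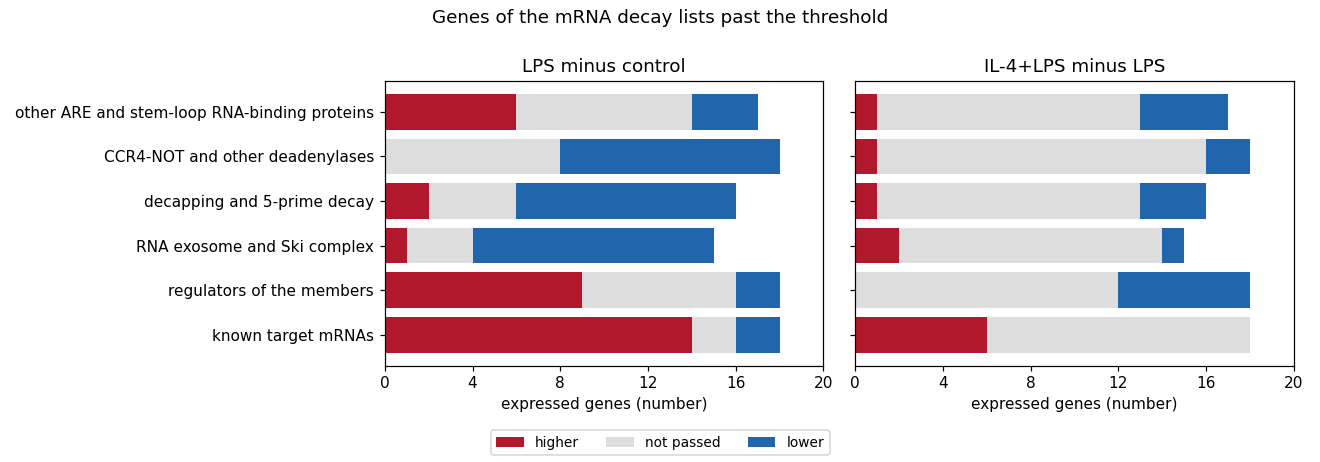
Number of expressed genes in 6 lists of the mRNA decay pathway that passed as higher, passed as lower or did not pass in limma on FPKM as deposited (adjusted p under 0.05), for LPS minus control and for IL-4+LPS minus LPS. Of the known targets 14 of 18 rose with LPS, and some of the 18 met the expression filter only in LPS-exposed samples. Of the 18 deadenylase genes 10 fell and 0 rose (6 rose after median scaling). Among all expressed rows 16.9% were called higher and 57.7% lower. For IL-4+LPS minus LPS 15% of all expressed rows were called higher and 15.8% lower.

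The mRNA decay machinery, which some of the 9 proteins recruit, showed mostly lower FPKM after LPS, as did most rows. Of all expressed rows 16.9% were called higher and 57.7% lower, or 2966 and 4453 of 11191 rows after median scaling. Of 18 genes of the CCR4-NOT complex and other deadenylases 10 fell and 0 rose (also 0 at an unadjusted limma p under 0.05), with a median of -0.62 against -0.44 for all rows, but after median scaling 6 rose and 10 fell. The largest falls were in Tob1 (-1.51 ± 0.10), an adaptor of CCR4-NOT, and Cnot6l (-1.35 ± 0.20), a catalytic subunit. Of 16 decapping and 5′ decay genes 2 rose and 10 fell (median -0.33), and after median scaling 5 rose and 2 fell, so the direction of this list depended on scaling. The genes that rose were the decapping enzyme Dcp2, from 4.83 ± 0.33 to 18.9 ± 1.51 FPKM (1.77 ± 0.08, limma adjusted p = 2.23e-08), and its partner Dcp1a (0.63 ± 0.07), while Dcp1b (-0.93 ± 0.07) and Edc3 (-0.84 ± 0.11) fell most. Of 15 genes of the RNA exosome and Ski complex 1 rose and 11 fell with a median of -0.45, which is the median of all rows, and 3 rose and 4 fell after median scaling. The gene that rose was the nuclease Dis3 (0.23 ± 0.08), and Exosc7 (-1.08 ± 0.15) and Exosc5 (-0.93 ± 0.24) fell most, although Exosc5 did not pass after either scaling.

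Between IL-4+LPS and LPS samples 1 deadenylase gene was higher and 2 were lower, with 1 and 3 among the decapping genes and 2 and 1 among the exosome genes, where 15% of all expressed rows were called higher and 15.8% lower. With replicates 2 and 3 alone the counts were 2 and 5, 2 and 4, and 2 and 2, a setting whose share over all rows is not given here. Btg1, a CCR4-NOT adaptor with antiproliferative function, was at 64.9 ± 3.35 FPKM after IL-4+LPS against 25.5 ± 5.81 after LPS (1.34 ± 0.15, limma adjusted p = 7.1e-05). Pan2 (-0.38 ± 0.12), Edc3 (-0.40 ± 0.11) and Dis3l (-0.31 ± 0.10) were lower and Lsm4 (0.50 ± 0.14) and Exosc5 (0.74 ± 0.24) higher.

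Among 17 other expressed RNA-binding proteins that act on AREs or stem-loops (23 listed), 6 rose and 3 fell with LPS. The shares over all expressed rows were 16.9% higher and 57.7% lower. After median scaling 12 of the 17 rose, against 2966 of all 11191 rows, but 7 rose after quantile normalization, against 2903. N4bp1, an endonuclease related to the Regnases, rose from 11.1 ± 0.51 to 51.4 ± 0.36 FPKM (2.12 ± 0.06, limma adjusted p = 1.45e-09), and Arid5a, which protects Il6 mRNA, from 1.94 ± 0.07 to 10.01 ± 2.74 (1.87 ± 0.20, limma adjusted p = 1.26e-05). Zc3h12d, which encodes Regnase-4, fell from 15.6 ± 1.63 to 3.27 ± 0.69 FPKM (-1.97 ± 0.12, limma adjusted p = 2.59e-07), in the opposite direction to Zc3h12a and Zc3h12c. It was lower still after IL-4+LPS, at 0.86 ± 0.19 FPKM (-1.19 ± 0.12 against LPS, limma adjusted p = 5.14e-05). Tia1, a translational repressor, fell by 0.97 ± 0.17. Between IL-4+LPS and LPS samples 1 gene of this list was higher (15% of expressed rows were) and 4 were lower (15.8%). Among the lower genes N4bp1 was at 28.1 ± 0.59 FPKM (-0.85 ± 0.06 against LPS, limma adjusted p = 1.76e-06), and its interaction was negative (-1.11 ± 0.08, limma adjusted p = 2.79e-05). The remaining lower genes were Celf1 (-0.31 ± 0.08) and Pum2 (-0.31 ± 0.10), of which Pum2 did not pass after quantile normalization. N4bp1 in this comparison, Celf1 and Pum2 were named after their values were seen. Hnrnpa2b1 was the gene that was higher (0.19 ± 0.05, limma adjusted p = 0.0158), and it did not pass after quantile normalization.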

How the data were processed

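RNA was measured in 12 BMDM samples, 3 in each of 4 groups named in the labels. The authors mapped TruSeq poly-A libraries to mm10 and deposited 1 table of FPKM values per sample, which the submitters' processing notes link to TopHat2 2.0.7 and Cufflinks 2.0.2; annotation and read counts are not given in the sources used here. Each gene row was joined across the 12 tables. Rows of at least 1 FPKM in at least 1 sample (11191 of 23847) were kept, the study's own definition of an expressed gene.

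FPKM values are not counts, so limma 3.58.1 (R 4.3.3, empirical Bayes with an intensity trend) was fitted to log2(FPKM + 1) over all 4 groups without a replicate block, with Benjamini-Hochberg adjustment over all kept rows in each comparison and a threshold of 0.05. The pseudocount of 1 understates changes of low genes. The study's own test for these samples is stated only as a p-value, and a per-gene Tukey test served as an alternative. Other alternatives were pseudocount 0.1, other filters, median scaling, quantile normalization, no trend, fits of only the compared groups, a replicate block, replicates 2 and 3 only, a 2-fold minimum, unadjusted p and each sample left out. Applying scaling and replicates 2 and 3 to the other lists, and leaving samples out of the family shares, was chosen after seeing the data. The fit was first tested on simulated data. The 9 genes and all lists were chosen with earlier results of these data known.

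Named beside the 9 genes were the 2 genes of each list with the largest change past the threshold in each direction for LPS against control and 1 in each direction for IL-4+LPS against LPS, with Tnf, Il6, Il12b, Nfkbiz, Ptgs2, Dusp1, Mapkapk2 and Malt1 always named, and the 3 rows most like each of the 9 genes by Pearson r, of which 1 is not reported here. Family shares were compared by an exact permutation test (scipy 1.17.1). Between any 2 libraries at least 14180 rows differed, so none was a copy. Gene models were GENCODE vM21, promoters RefSeq, both on GRCm38. Words of 50 bases shared with other genes made up 0% to 3.26% of the longest transcript of each of the 9 genes, the most for Zfp36l1 (with Zfp36l1-ps).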

Additional observations from a re-analysis of the deposited data

Results flagged for a closer look

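The LPS response of Zfp36l1 and of Zfp36l2 differed between naive and IL-4-pretreated BMDMs by a test of the difference itself. The interaction was 2.22 (log2) for Zfp36l1 and 2.10 for Zfp36l2, with limma adjusted p of 0.00376 and 0.00281, and in both genes all 3 IL-4+LPS samples lay above all 3 LPS samples. The values over all alternatives and left-out samples were 2.01 to 2.50 for Zfp36l1 and 1.93 to 2.57 for Zfp36l2, and each passed. Reads of the antisense lincRNA Gm26669, which overlaps 55.9% of the exonic bases of Zfp36l1, cannot be told apart from those of the gene in these libraries. No group of 3 samples was tested for outliers.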

How the results depend on the processing

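No call of the 9 genes reversed, and 28 of 45 pairs of gene and comparison kept their side of the threshold in every alternative and with each sample left out, among them all LPS responses of Zfp36, Zfp36l1, Zfp36l2, Zc3h12a and Zc3h12c. For IL-4 against control, the number of genes that fell (1) was 2 when only the compared groups were fitted, 3 with a replicate block, 4 with replicates 2 and 3 only and 0 with a 2-fold minimum, since Zfp36l1 changed by -0.996, and 0 rose except for 1 with replicates 2 and 3 only. For IL-4+LPS against IL-4, the number that rose (3) was 5 after quantile normalization and 5 after median scaling. For IL-4+LPS against LPS, the number that fell (0) was 2 with the block (Rc3h2 and Khsrp) and 3 with replicates 2 and 3 only, where 3 rose in place of 2. For the interaction the number of genes that passed as negative (0) was 1 with the block (Khsrp) and 2 with replicates 2 and 3 only (Zfp36 and Khsrp). For LPS against control the number that fell (2) was 3 with the block and 3 with replicates 2 and 3 only, through Khsrp (-0.22 with limma adjusted p = 0.00247 under the block). The cause was not tested, and the shares of all rows called with the block or with replicates 2 and 3 only are not given here. With 1 sample left out in turn, the genes that fell with IL-4 numbered 1 to 2 (2 without IL-4 replicate 1) and those that rose in IL-4+LPS against IL-4 numbered 3 to 4, and the other 8 counts did not move. For the 28 family shares a move of 1 SD was the limit, but leaving out 1 of 3 samples cannot move a mean that far. That rule therefore could not test the shares. Without replicate 1 the mean shares of Zfp36l1 and Zfp36l2 after LPS and of Zfp36l1 after IL-4+LPS dropped by over 1.5 times. The replicate numbers are shared by the groups but are not said to mark the same animal. Deviations of same-numbered samples correlated at a mean r of 0.124 (0.0024 to 0.386, 18 pairs), against -0.0596 (-0.288 to 0.22, 36 pairs) for samples of different number. Of 12 samples 9 correlated best with their own number, which is a hint from the data and not the design. Across all rows median scaling changed the LPS calls from 1887 higher and 6462 lower to 2966 and 4453, and quantile normalization to 2903 and 4326. Read counts are unknown, so no counting error can be given.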
